A study of Mus musculus with 8 samples.

Results

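Plet1 (placenta-expressed transcript 1, ENSMUSG00000032068) is 1 of the 33696 genes in the deposited gene table, and it was followed through 15916 cells of the mouse cecum and colon. It was chosen by name, because earlier work on these data had found it lower in cecal cells of antibiotic-treated and germ-free mice than in control cells, so its own changes against cecal controls are given as a description with no test. The genes that go with it across control cells were added by a fixed rule. In all, 1348 of the 15916 cells held at least 1 Plet1 transcript.

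Plet1 codes for a small glycoprotein that is held on the cell surface by a glycosylphosphatidylinositol (GPI) anchor. It is known as a surface mark of progenitor cells of the placenta, the thymic epithelium and the hair follicle, where it takes part in cell adhesion and migration. In the mouse colon it has been described as a target of interleukin-17A that helps the epithelium to close wounds.

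The study made single-cell RNA-seq of sorted epithelium from the mouse colon and cecum, and its title concerns nicotinic acid made by the microbiome, the regional identity of the colon and its susceptibility to injury. The groups are named Abx_4D and Abx_14D (mice given antibiotics, where the meaning of 4D and 14D is unexplained), GF (germ-free) and Ctrl (control). Each had 4 numbered loaded samples per tissue, which makes 32 in all, spread over 8 sublibraries of a split-pool barcoding kit. Cells of a condition were pooled before they were sorted as EPCAM-positive and CD45-negative, with CD44-positive and CD44-negative cells loaded in equal numbers, so the balance of dividing and differentiated cells was set by the sort. The sources used here give no strain, sex, age, antibiotic or dose. Nothing says that samples with different numbers came from different animals: spreads and p-values cover these samples only, and may be technical.

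Cells with at least 500 transcripts were kept. The 4 cecal groups held 1511 (Abx_4D), 2296 (Abx_14D), 1636 (GF) and 1330 (Ctrl) cells, with 1821737 to 15414170 transcripts per sample, and the colon Abx_14D and GF groups held 3852 and 4215 cells, with 6613124 to 30127065 transcripts per sample. Colon Ctrl kept 50 cells and was not compared. No barcode was shared between samples. Cells were sorted into classes by scores of marker genes (a gate is a range of a score, not a cell type). In the cecum 323 cells lay within 10% of the absorptive threshold, beside 1716 gated ones, whose median score was 1.76 for absorptive, 0.06 for goblet, 0.08 for stem and 0 for immune markers. Immune-gated cells numbered 29 in the cecum and 23 in the colon, and stroma-gated cells 10 and 2. No doublet caller was run, so doublets remain in all classes.

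In the reference annotation Plet1 lies on chromosome 9 with 1 start site. The 250 bases before that start are shown because the level of Plet1 differs so widely between groups and cells. The capitals mark a TATA box and a letter match of the AP-1 motif, at chr9:50494275-50494524, plus strand, build GRCm38.p6, sequence from RefSeq:

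Plet1 promoter: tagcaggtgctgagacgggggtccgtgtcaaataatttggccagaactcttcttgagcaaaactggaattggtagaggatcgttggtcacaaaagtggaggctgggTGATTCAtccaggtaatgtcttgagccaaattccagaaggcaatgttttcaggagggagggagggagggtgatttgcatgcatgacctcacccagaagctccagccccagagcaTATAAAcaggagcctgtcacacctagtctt

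Both strands were searched. The TATA box (TATAAA) stood 30 to 25 bases before the start, and 12.4% of 32851 promoter windows of the same length hold one. The AP-1 letters (TGANTCA, here TGATTCA) stood 144 to 138 bases before the start, and 6.75% of windows hold them. The KLF letters (CACCC) occurred 3 times, against 52.0% of windows with at least 1, and 1 of the 3, at 147 to 143 bases before the start, overlaps the AP-1 match. The letters of a STAT site (TTCNNNGAA, in 7.02% of windows) and of an interferon-stimulated response element (GAAANNGAA, in 7.13%) were not in this window. A match of letters is a description and not a site.

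In the cecum, Plet1 was nearly absent from absorptive-gated cells of the antibiotic-treated and germ-free groups and abundant in those of controls. The absorptive-gated cells of Abx_4D samples 1, 3 and 4 had 0, 6.43 and 4.95 counts per 1000000 transcripts (CPM). Those of the 4 Abx_14D samples had 0.898, 0, 1.57 and 1.25 CPM. Those of the 4 GF samples had 0, 0.703, 0.263 and 0 CPM, which is 2 counts in 433 cells. Those of Ctrl samples 2, 3 and 4 had 571, 186 and 443 CPM. Every control sample lay above every sample of the other groups, whose highest was Abx_4D 3. The 2 samples with under 20 such cells, left out of means and fits, lay with their groups, at 4.65 CPM in Abx_4D 2 (13 cells) and 389 CPM in Ctrl 1 (15 cells).

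The means were 3.79 ± 3.37 CPM in Abx_4D (SD, n = 3), 0.931 ± 0.679 CPM in Abx_14D (n = 4), 0.242 ± 0.332 CPM in GF (n = 4) and 399.7 ± 196 CPM in Ctrl (n = 3). In one edgeR fit of the 4 groups this gave a log2 change of -6.30 ± 0.46 (SE) for Abx_4D and -8.27 ± 0.44 for Abx_14D against Ctrl. For GF, with 2 counts, the summed CPM was 1496-fold lower than in Ctrl, with a 95% counting interval of 413 to 12361-fold. Among the 3 groups, Abx_4D, Abx_14D and GF followed each other in falling order of the mean, but their samples overlapped. The share of absorptive-gated cells with a Plet1 count was 5.04% ± 5.48 in Abx_4D, 1.28% ± 0.858 in Abx_14D, 0.425% ± 0.539 in GF and 58.6% ± 7.90 in Ctrl. With each cell thinned to 2000 transcripts, which left out 15, 37, 27 and 9 shallower cells over all samples, the shares were 1.01%, 0.145%, 0% and 29.1%. At the levels of the first 3 groups, counts of the cells cannot be told apart from stray counts. The median absorptive score of the gated cells was 1.72 in Abx_4D, 1.87 in Abx_14D, 1.60 in GF and 1.79 in Ctrl. Cells scoring 2.5 and over numbered 40 of 228 in Abx_4D, 159 of 736 in Abx_14D, 24 of 433 in GF and 59 of 319 in Ctrl, so GF had the fewest at the scores where control Plet1 is highest.

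**Figure D1:**
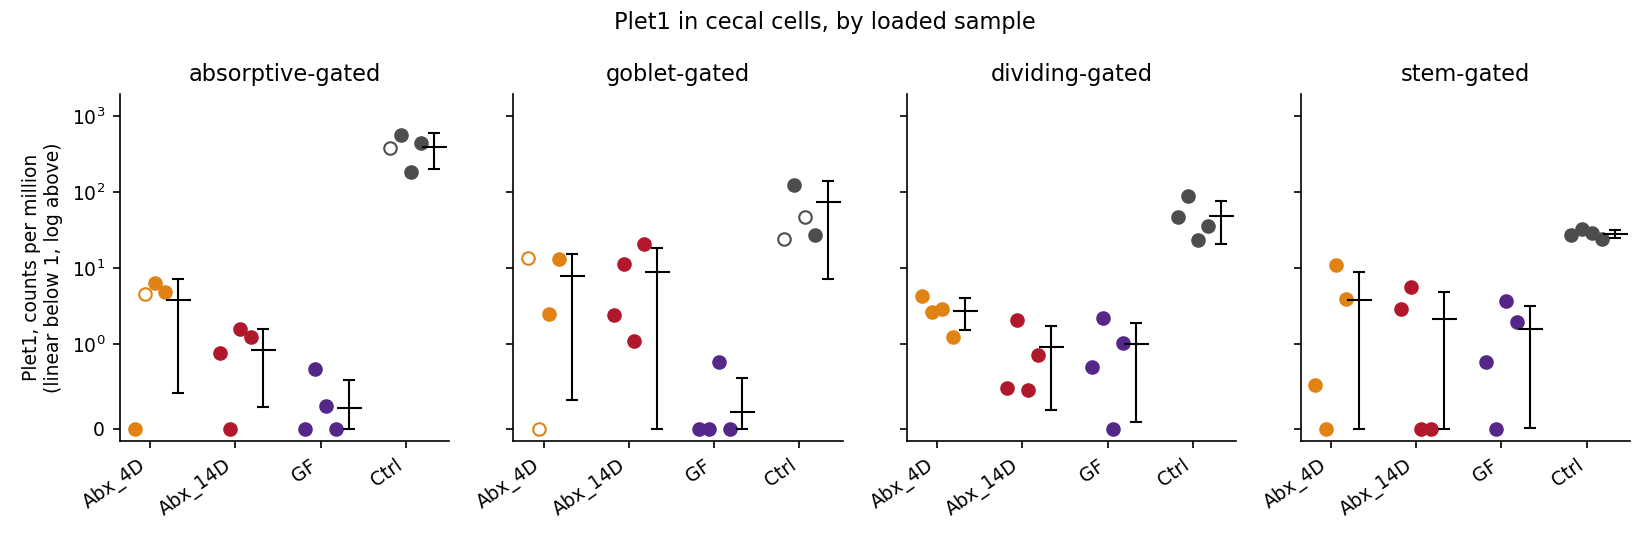
Plet1 in CPM (vertical axis, linear below 1 and logarithmic above) in each loaded cecal sample, for absorptive-, goblet-, dividing- and stem-gated cells. Filled points are samples with at least 20 cells of the class, open points have fewer, and bars give mean and SD of the filled points, with the lower bar ended at 0. In the absorptive panel the filled Ctrl points lie at 186 to 571 CPM and the highest other point at 6.43 CPM.

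Within control cecum, cells with a higher absorptive score had more Plet1. Here stem-, dividing-, absorptive-gated and unassigned cells were pooled over samples. Control cells with an absorptive score under 0.25 held 29.6 CPM and those from 0.5 to 1 held 52.0 CPM. Those from 1.5 to 2 held 166 CPM, and those at 2.5 and over held 796 CPM (59 cells, 79.7% of them with a count). The 4 control samples spread widely, from 12.1 to 273 CPM at 1 to 1.5 and from 332 to 1342 CPM at 2 to 2.5. At 2.5 and over, only 2 samples had more than a few cells (483 and 1020 CPM). Between 2 and 2.5, pooled cells had 9.996 CPM in Abx_4D, 1.49 CPM in Abx_14D and 0.509 CPM in GF, against 683 CPM in Ctrl. At a score of 2.5 and over, pooled cells had 8.18 CPM in Abx_4D, 0.710 CPM in Abx_14D and no count in GF (24 cells), against 796 CPM in Ctrl. At the low end, under 0.25, the values were 4.97 CPM in Abx_4D, 2.58 CPM in Abx_14D and 0 CPM in GF, against 29.6 CPM in Ctrl.

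**Figure D2:**
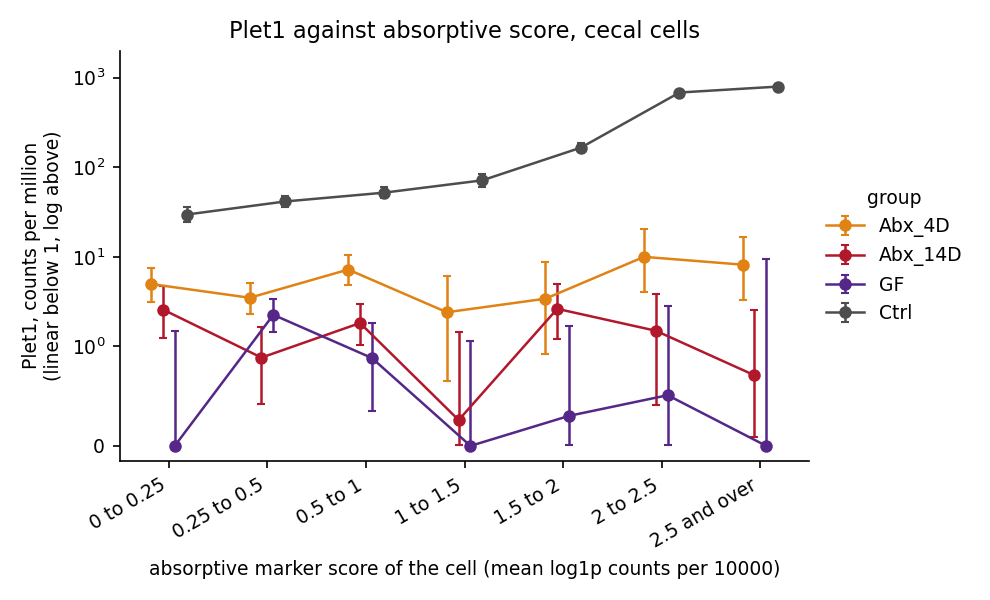
Plet1 in CPM (vertical axis, linear below 1 and logarithmic above) by the cell's absorptive marker score (horizontal axis), with exact 95% counting intervals. Stem-, dividing-, absorptive-gated and unassigned cecal cells are pooled over samples, so the intervals leave out the spread between samples. The Ctrl line climbs from 29.6 CPM at the lowest scores to 796 CPM at the highest, and the other 3 lines reach at most 9.996 CPM.

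Plet1 was uneven even among absorptive-gated control cells. The 32 cells with most counts, 10% of the 319, held 62.0% of the 1848 counts, and a single cell held up to 77. The 8 sublibraries gave 231 to 398 CPM for these cells. Absorptive-gated cells made up 24.0% of control cecal cells and held 72.6% of the Plet1 counts.

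The other control classes came below. Goblet-gated cells had 123 and 27.1 CPM in Ctrl 2 and 4, the 2 samples with at least 20 such cells. Dividing cells had 47.1, 88.5, 23.5 and 36.0 CPM in the 4 control samples, and stem-gated cells 27.8, 33.4, 28.9 and 24.1 CPM. Absorptive-gated cells exceeded dividing and stem-gated cells in 3 of 3 control samples, while dividing cells exceeded stem-gated cells in 2 of the same 3, so dividing and stem-gated cells were not ordered beyond their spread. The 36 tuft-, enteroendocrine- and immune-gated control cells held no Plet1 count, which allows up to 8.33% of cells with a count and a level of up to 9.48 CPM. This covers counting error only and sets no limit on cells that express the gene. Of 6 control cells gated as M cells (specialised antigen-sampling cells), 2 held 28 counts, too few cells to describe the class.

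Outside the absorptive gate, too, Plet1 was lower in the 3 groups than in controls. Stem-gated cells averaged 3.87 ± 5.06 CPM in Abx_4D, 2.14 ± 2.70 CPM in Abx_14D, 1.61 ± 1.60 CPM in GF and 28.6 ± 3.83 CPM in Ctrl (SD, n = 4 each). Dividing cells averaged 2.78 ± 1.24, 0.972 ± 0.751 and 0.998 ± 0.924 CPM in Abx_4D, Abx_14D and GF, against 48.8 ± 28.2 CPM in Ctrl (n = 4 each). Every stem-gated and dividing sample of those groups lay below every control sample of its class. Goblet-gated cells had 9.05 ± 9.29 CPM in Abx_14D (n = 4) and 1 count in 141 cells in GF; in Abx_4D samples 3 and 4 they had 2.54 and 13.2 CPM, and the lower of the 2 usable control samples had 27.1 CPM. These classes were added after the data were seen, and their changes share the control samples of the absorptive comparison.

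The genes that go with Plet1 were ranked by the mean within-sample Pearson correlation with Plet1 (log1p of counts per 10000), with the marker genes of the gates left out. Over all 1330 control cecal cells, 10862 genes were ranked. These correlations describe cells of the same samples and libraries, which also share depth, and no p is given. The highest was Ifit1bl1, an interferon-induced gene of the IFIT family (mean r = 0.56, 0.50 to 0.64 over 4 samples). It was followed by Saa1 (0.52), an acute-phase protein of inflamed epithelium, Emp1 (0.52) and Mal (0.50), membrane proteins of apical traffic and epithelial junctions, 1810065E05Rik (0.49), Rhoc (0.49), a small GTPase of the cytoskeleton, and the brush-border protease Mep1b (0.49). The remaining 8 of the first 15, at 0.46 to 0.48, were Myo15b, Clec2h, Slc6a14, Mxd1, Muc3, Pmp22, Ifit1 and Prss30. All 15 had a positive r in 4 of 4 samples, and 99% of ranked genes lay below 0.33. Of the gate's own markers, Krt20 (0.53), Lypd8 (0.50), Guca2a (0.48) and Aqp8 (0.47) went with Plet1 as closely. The lowest were Nedd4, Sema5a, Hsp90ab1, Ncl and Ptma (-0.31 to -0.37), among which Ncl and Ptma are genes of growing cells.

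Among the 304 absorptive-gated control cells of samples 2, 3 and 4, where 9767 genes were ranked, defence genes and membrane mucins stood among the companions. Ifit1bl1 was again the highest of the ranked genes (mean r = 0.59). Duox2 (0.53), the oxidase that makes hydrogen peroxide at the gut surface, came next, followed by Muc4 (0.51), Muc13 (0.50) and Muc3 (0.50), all membrane mucins of the glycocalyx, and Ifit1 (0.50). Ncoa7, Rhoc, Trim25, Eps8, Irf7, Trim40, Saa1, Foxo3 and Mxd1 completed the 15, at 0.47 to 0.49. Of these, Irf7 and Trim25 are known in the interferon response. Ifit1bl1, Saa1, Rhoc, Mxd1, Muc3 and Ifit1 stood in both sets. Of the gate's own markers, which were not ranked, Lypd8 (0.63) lay above Ifit1bl1, and Car4 (0.57) lay above Duox2. Others, such as Slc26a3 (0.05) and Car1 (-0.03), did not go with Plet1 within the gate. The lowest ranked genes were Mbnl1, Eif3a, Akr1c19, Isoc2a and Gsdmc2 (-0.42 to -0.45).

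Across the cecal groups these companions did not move as one with Plet1. In absorptive-gated cells 9908 genes were tested with edgeR's quasi-likelihood test, its p-values adjusted by Benjamini-Hochberg over all of them and called under 0.05. Of the 15 companions found within absorptive-gated cells, all of which passed the low-count filter, 2 were lower and 1 higher in Abx_4D, against 1.77% and 1.53% of all genes tested. In Abx_14D 5 were lower and 0 higher, against 3.44% and 4.03%. In GF 10 were lower and 0 higher, against 5.57% and 7.52%. Their median log2 change was 0.04 in Abx_4D, -0.26 in Abx_14D and -1.37 in GF, beside 0.10, 0.14 and 0.17 over all genes. Of the 15 found over all control cells, 1, 2 and 7 were lower and 0 higher in Abx_4D, Abx_14D and GF, with medians of 0.03, -0.16 and -0.59. The members were chosen on control cells, which are also the controls that all 3 comparisons share, and had to be seen there to be ranked. That leans their changes towards lower and was not asked of the other genes, so the counts are a description and nothing is read from their size. Without Ctrl 4, 3 of the first 15 and 1 of the second were lower in Abx_14D, and without GF 3, 4 of the second were lower in GF.

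Of the 15 companions within absorptive-gated cells, Duox2 had the largest log2 change in Abx_14D and GF. Absorptive-gated cells had 56.2, 26.3 and 16.1 CPM of it in Abx_4D, 5.39, 0.679, 1.43 and 1.88 CPM in Abx_14D, and 2.37, 0.703, 0.263 and 1.43 CPM in GF, against 140, 77.6 and 128 CPM in Ctrl. No sample of the other groups overlapped the controls. The log2 changes were -1.97 ± 0.38 in Abx_4D (SE, adjusted p = 0.0032), -5.86 ± 0.43 in Abx_14D (adjusted p = 1.1e-08) and -6.85 ± 0.49 in GF (adjusted p = 3.5e-09). The adjusted p-values of companions against Ctrl, here and below, make no allowance for the choice of these genes in the same control cells. Muc4 also fell in all 3, by 2.90 ± 0.32, 3.53 ± 0.29 and 4.22 ± 0.30 on the log2 scale. Mal, a companion over all control cells, fell by 1.36 ± 0.25, 1.77 ± 0.23 and 1.94 ± 0.23.

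Interferon-response companions were lower in germ-free cells, and none of those named here passed the test as lower in Abx_4D or Abx_14D. Ifit1bl1, the companion ranked first with gate markers left out, had 119, 316 and 133 CPM in Abx_4D. It had 92.5, 258, 169 and 41.0 CPM in Abx_14D. In GF it had 24.9, 4.92, 3.42 and 15.7 CPM, against 107, 142 and 258 CPM in Ctrl. Only in GF did every sample lie below every control (log2 change -4.05 ± 0.58, adjusted p = 4.5e-05), and the changes of 0.15 ± 0.51 in Abx_4D and -0.32 ± 0.48 in Abx_14D did not pass the test. Set directly against Abx_14D, GF was lower by edgeR's quasi-likelihood test (-3.73 ± 0.56, adjusted p = 0.00022). Ifit1 (-4.66 ± 0.54), Trim25 (-1.37 ± 0.19) and Irf7 (-1.87 ± 0.23) were likewise lower in GF. Irf7 was higher in Abx_4D (0.94 ± 0.23, adjusted p = 0.023), a call that was lost under TMM scaling (adjusted p = 0.057) and without Abx_4D 3, Abx_4D 4, Ctrl 2 or Ctrl 3. Rhoc, Eps8, Muc3, Foxo3 and Mxd1 passed the test in no group, with log2 changes between -0.59 and 0.54.

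**Figure D3:**
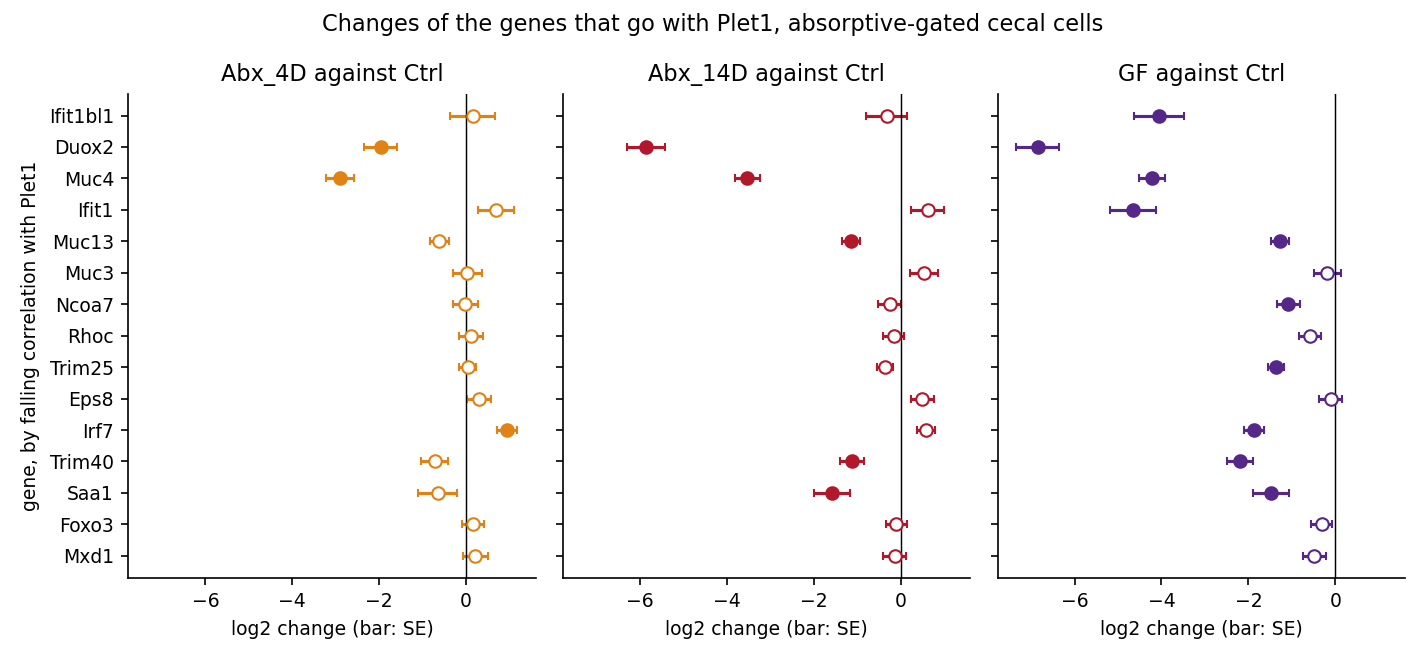
Log2 change against Ctrl (horizontal axis, bars give SE) in absorptive-gated cecal cells for the 15 companions found within control absorptive-gated cells. They are ordered by their correlation with Plet1, and gate markers were left out of that ranking. Filled points passed an adjusted p of 0.05 and open ones did not. Duox2 and Muc4 are filled in all 3 panels, and Ifit1bl1 only in the GF panel, at -4.05.

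Of the genes least correlated with Plet1 within absorptive-gated cells, Akr1c19, a steroid-metabolising reductase, rose in Abx_4D (0.76 ± 0.18), Abx_14D (0.93 ± 0.17) and GF (1.23 ± 0.17), although its Abx_4D call was lost without Abx_4D 1, Abx_4D 4 or Ctrl 2. Gsdmc2, a pore-forming gasdermin of the colon, fell by 2.15 ± 0.31, 2.24 ± 0.28 and 1.22 ± 0.28. Mbnl1 passed the test only in GF, as higher (0.81), and Eif3a and Isoc2a passed it in no group.

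Among genes of the epithelial response to interleukin-17 and interleukin-22, more passed the test as lower than as higher in each group. Of 25 listed genes other than Plet1, 16 were tested in absorptive-gated cells. In Abx_4D 5 were lower and 1 higher, in Abx_14D 8 and 1, and in GF 10 and 1. Over all genes tested, 1.77% were lower and 1.53% higher in Abx_4D, 3.44% and 4.03% in Abx_14D, and 5.57% and 7.52% in GF. The list's median log2 changes were -0.50, -0.65 and -0.91, beside 0.10, 0.14 and 0.17 over all genes. This list and those below were chosen with earlier results of these data known. Members high only in Ctrl, such as Duoxa2, could also pass the low-count filter through that group. The counts and medians of the lists are therefore a description, and nothing is read from their size. The antimicrobial lectins Reg3b and Reg3g were among the largest, by -4.42 ± 0.83 and -4.56 ± 0.92 in Abx_4D and -5.86 ± 0.79 and -6.07 ± 0.83 in Abx_14D. Duoxa2, the maturation factor of Duox2, averaged 2.76 ± 3.15 CPM in Abx_4D and 0.710 ± 1.33 CPM in Abx_14D and had no count in GF, against 25.7 ± 13.1 CPM in Ctrl. Fut2, which fucosylates surface glycans, fell by 1.82 ± 0.23, 2.56 ± 0.21 and 2.99 ± 0.22. The 1 gene higher was Il17rc, a subunit of the interleukin-17 receptor, at 0.78 ± 0.21 in Abx_4D, 0.77 ± 0.20 in Abx_14D and 0.62 ± 0.20 in GF. Its call was lost under TMM scaling in Abx_4D (adjusted p = 0.060) and GF (adjusted p = 0.11), and in all 3 groups without Ctrl 3 or Ctrl 4. Without Abx_4D 3 or Ctrl 4, Reg3g and Duoxa2 did not pass the test in Abx_4D, and without Ctrl 4 Saa1 did not pass it in Abx_14D or GF. With DESeq2, Reg3b, Reg3g and Duoxa2 did not pass in Abx_4D (adjusted p = 0.11, 0.34 and 0.45).

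Of 42 other GPI-anchored surface proteins, 20 were tested, and 2, 4 and 6 were lower in Abx_4D, Abx_14D and GF, with 0 higher in any. The shares of all genes tested were 1.77%, 3.44% and 5.57% lower and 1.53%, 4.03% and 7.52% higher. Median log2 changes of the list were 0.14, -0.23 and -0.46, beside 0.10, 0.14 and 0.17 over all genes. Ly6a, a stem cell antigen that marks regenerating gut epithelium, fell in all 3 groups (-2.02 ± 0.32, -3.84 ± 0.31 and -5.98 ± 0.39). Art2a, an ADP-ribosyltransferase known from T cells, averaged 0.536 ± 0.928 CPM in Abx_4D, 0.895 ± 1.22 CPM in Abx_14D and 0.528 ± 0.452 CPM in GF, against 9.38 ± 2.87 CPM in Ctrl, although its Abx_4D call was lost without Abx_4D 4 or Ctrl 4. The others were Ly6e and Nt5e in Abx_14D and Bst2, Cd24a, Ly6e and Plaur in GF. In Abx_14D the call of Ly6e was lost without Ctrl 4 and that of Nt5e without Abx_14D 3 or Ctrl 2. Of 28 genes of GPI synthesis and transfer, 26 were tested, none was lower in any group, and Pigt was higher in GF (0.92 ± 0.26, adjusted p = 0.020; lost without Ctrl 3, Ctrl 4 or GF 4), with medians of 0.08, 0.19 and 0.14.

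Of 22 wound and regeneration genes, 17 were tested, with 3 lower and 1 higher in Abx_4D, 3 and 2 in Abx_14D, and 7 and 0 in GF. All genes tested gave 1.77% lower and 1.53% higher, 3.44% and 4.03%, and 5.57% and 7.52% in the same order. Median log2 changes of these genes were -0.14, -0.10 and -0.34, beside 0.10, 0.14 and 0.17 over all genes. Ereg, an epidermal growth factor family ligand, fell in all 3 groups (-2.19 ± 0.57, -1.78 ± 0.46 and -1.61 ± 0.46), although its Abx_4D call was lost when any 1 of the 6 samples was left out, and its Abx_14D and GF calls without Ctrl 2 or Ctrl 4, among others. Anxa1, an annexin of wound resolution, rose in Abx_4D (2.00 ± 0.39) and Abx_14D (2.49 ± 0.36) and did not pass the test in GF (1.11 ± 0.37, adjusted p = 0.051). Of 11 genes known from keratinocyte and placental progenitors, 1 passed the low-count filter, and it was called in no group.

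Over all genes, 152 were higher and 175 lower in Abx_4D, 399 and 341 in Abx_14D, and 745 and 552 in GF. The genes lower in Abx_4D numbered 108 without Abx_4D 3, 106 without Abx_4D 4 and 110 without Ctrl 4, and those lower in Abx_14D numbered 199 without Ctrl 4. Under TMM scaling the splits were 139 and 250, 301 and 480, and 490 and 780, and the median change of all genes went down to 0.03, 0.03 and 0.02, so that changes near those medians depend on the scaling. No named gene that passed the test changed direction under another scaling.

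The neighbourhood of Plet1 was examined with the order of genes in the GRCm38.p6 annotation, whose build differs from that of the files and which was used for order only. Of the 10 nearest genes on each side, 14 of 20 were in the gene table and 9 passed the filter in absorptive-gated cecal cells. Pts, the nearest gene after Plet1, did not pass the test in any group (-0.09 ± 0.29, 0.14 ± 0.25 and 0.36 ± 0.25). Il18, 3 genes away, fell in all 3. This cytokine is made by gut epithelium as a precursor that inflammasomes activate. It had 20.8, 8.57 and 18.6 CPM in Abx_4D, 21.6, 15.6, 9.87 and 17.2 CPM in Abx_14D, and 26.1, 46.4, 26.8 and 37.9 CPM in GF, against 178, 81.1 and 99.1 CPM in Ctrl. Every sample of the other groups lay below every control sample. The log2 changes were -2.94 ± 0.37 in Abx_4D (adjusted p = 5.7e-05), -2.90 ± 0.31 in Abx_14D (adjusted p = 2.3e-06) and -1.72 ± 0.30 in GF (adjusted p = 0.00037). Bco2, a carotenoid-cleaving enzyme 2 genes away, was higher in GF (1.55 ± 0.43, adjusted p = 0.0196), and its call was lost when Ctrl 3, GF 3 or GF 4 was left out. The other 6, Rpl10-ps3, Tex12, Sdhd, Timm8b, Nkapd1 and Dlat, passed the test in no group.

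Plet1os, a non-coding gene that overlaps Plet1 on the opposite strand, was counted at a low level. Absorptive-gated cells had 0.228 CPM in Abx_4D, 0.705 CPM in Abx_14D and 0.564 CPM in GF, from 1, 9 and 5 counts, against 9.38 CPM in Ctrl from 51 counts. Among cells with a Plet1os count, 1 of 1 in Abx_4D, 0 of 9 in Abx_14D, 0 of 5 in GF and 28 of 30 in Ctrl held Plet1. Among all absorptive-gated cells, 13 of 228, 11 of 736, 2 of 433 and 180 of 319 held it. Outside Ctrl, hardly any shared cell could therefore be seen, and nothing is read from the zeros. Whether counting used strand is not stated, so reads of the overlapping pair may be split between them.

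In the colon, Plet1 was present in Abx_14D and GF mice and lay mostly in another cell class. Over all cells, the colon Abx_14D samples had 13.2, 22.3, 34.6 and 13.4 CPM, against 1.57, 3.47, 0.908 and 2.75 CPM in cecal Abx_14D samples. The colon GF samples had 25.4, 15.5, 51.8 and 48.0 CPM, against 0.448, 0.529, 1.77 and 0.430 CPM in cecal GF samples. Colon and cecum did not overlap in either group. With the 4 groups in 1 edgeR fit, the log2 difference between colon and cecum was 3.31 ± 0.49 (SE) in Abx_14D and 5.21 ± 0.55 in GF. It is given with no p, since the low cecal values of these groups led to the choice of Plet1, and nothing is read from the share of genes called in this fit, where 18.5% and 14.3% of 13945 genes were higher in colon and 16.4% and 9.26% lower. Within the colon, where no cecal sample is compared, GF and Abx_14D overlapped and did not pass edgeR's quasi-likelihood test (0.76 ± 0.40, adjusted p = 0.835; 0.889% of genes passed it). The makeup of the cells differs between the tissues: absorptive-gated cells were 2.96% (Abx_14D) and 3.18% (GF) of colon cells, against 32.1% and 26.5% of cecal cells, and goblet-gated cells were 7.81% and 10.5% of colon cells, against 6.05% and 8.62% of cecal cells. The part of this makeup in the difference was not tested.

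Goblet-gated cells, named for the cells that secrete the mucus layer, held most of the colon's Plet1 in Abx_14D and GF. Of the colon Plet1 counts, 66.2% in Abx_14D and 88.9% in GF lay in goblet-gated cells. This class was singled out after these levels were seen, and its differences are given with no test. Colon goblet-gated cells had 59.4, 135, 163 and 118 CPM in Abx_14D, against 2.43, 11.6, 1.10 and 21.1 CPM in the cecum. In GF they had 176, 114, 231 and 257 CPM in the colon, against 0, 0, 0.796 and 0 CPM in the cecum. All 8 colon samples lay above all 8 cecal ones. The log2 difference was 3.86 ± 0.50 in Abx_14D, and in GF, with 1 cecal count, the colon's summed CPM was 930-fold higher, with a 95% counting interval of 167 to 36761-fold. GF had 194 ± 63.5 CPM and Abx_14D 119 ± 43.7 CPM in the colon (SD, n = 4 each), a log2 difference of 0.72 ± 0.34 with overlapping samples.

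Absorptive-gated colon cells, by contrast, held 1 count in 114 cells in Abx_14D and 3 counts in 134 cells in GF. Plet1 did not pass the low-count filter there, so the planned test between colon and cecum in this class could not be made, and the ratio of summed CPM was 0.357 in Abx_14D (95% counting interval 0.00851 to 2.30) and 4.89 in GF (0.560 to 58.6). The goblet-gated level exceeded the stem-gated and the absorptive-gated level in 8 of 8 colon samples. Stem-gated cells lay above absorptive-gated cells in 8 of 8, although the absorptive-gated value rests on 0 to 2 counts a sample. Pooled 95% counting intervals of the absorptive- and stem-gated cells were 0.0113 to 2.49 and 7.38 to 9.58 CPM in Abx_14D. In GF they were 0.227 to 3.22 and 3.14 to 4.41 CPM, which overlap. Stem-gated colon cells averaged 5.69 ± 3.80 CPM in Abx_14D and 3.69 ± 1.54 CPM in GF. The 18 and 24 enteroendocrine-gated colon cells, which make gut hormones, had 37.7 and 48.4 CPM in Abx_14D and GF, from 16 and 22 counts. The share of goblet-gated colon cells with a count was 37.1% ± 5.75 in Abx_14D and 32.2% ± 4.54 in GF, and 15.7% and 15.3% after thinning to 2000 transcripts. The absorptive-gated cells of the same samples had 0.877% and 1.49% of cells with a count at median depths of 15450.5 and 18678 transcripts, near the 18688 and 19787.5 of the goblet-gated cells, so the goblet share lay above background.

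**Figure D4:**
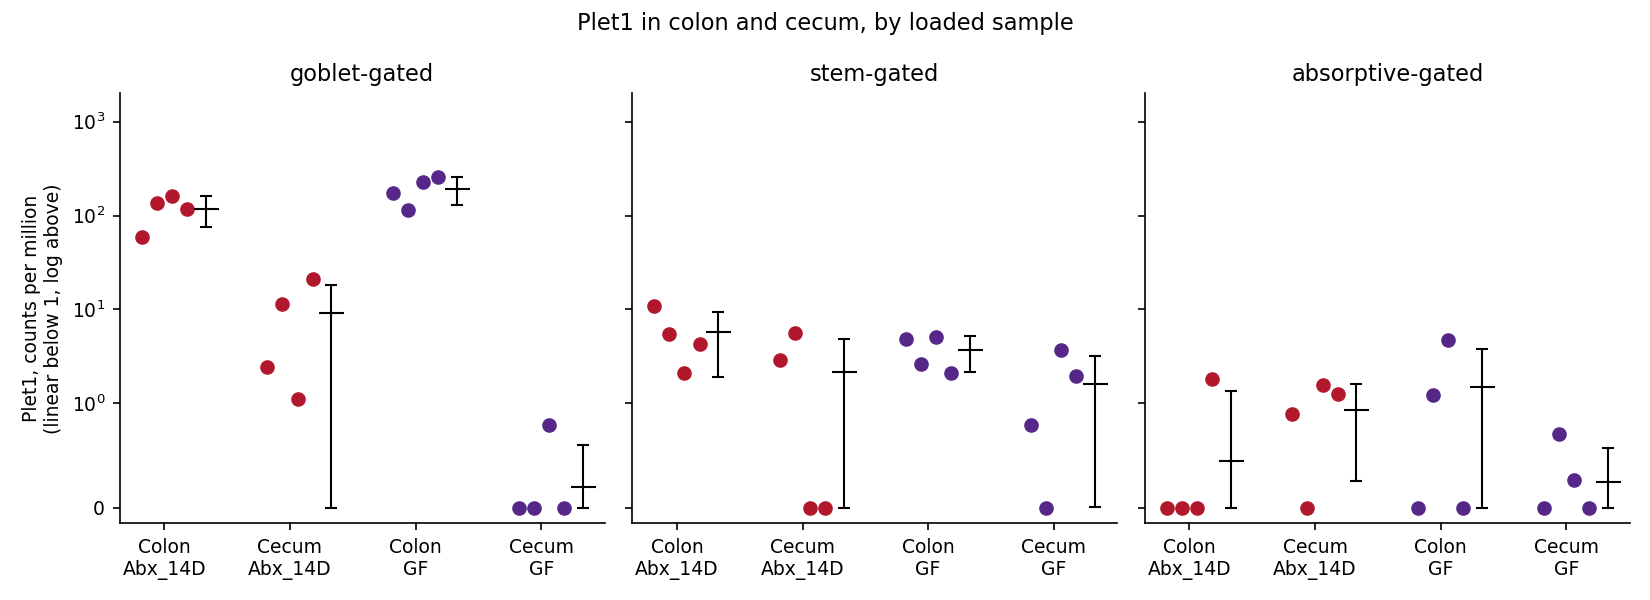
Plet1 in CPM (vertical axis, linear below 1 and logarithmic above) in each loaded sample of Abx_14D and GF, with colon left of cecum, for goblet-, stem- and absorptive-gated cells. Bars give mean and SD over 4 samples, with the lower bar ended at 0. In the goblet panel colon samples lie at 59.4 to 257 CPM and cecal samples at 0 to 21.1 CPM.

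Within colon goblet-gated cells Plet1 was again concentrated, with 67.9% of counts in the top 10% of cells in Abx_14D and 72.9% in GF. The 8 sublibraries gave 90.9 to 248 CPM. Over these 745 cells of 8 samples, where 11275 genes were ranked (a ranking added after the data were seen), the gene most correlated with Plet1 was Cmah, which makes the sialic acid Neu5Gc (mean r = 0.64, above 0 in 8 of 8 samples). Plet1os followed (0.56), then Vipr2, a receptor for vasoactive intestinal peptide (0.55), Pdzrn3 (0.54), Rgs17 (0.54), Golm2 (0.54), Plcb4 (0.54), the calcium channel Cacna1h (0.54) and A4gnt (0.53), which caps gastric-type mucin glycans with N-acetylglucosamine. The others were 9530036O11Rik, Car8, Art2a, Myo3a, Adamts3 and Adamts17, at 0.51 to 0.53. None of the 15 was among the companions in control cecum. Lists of 15 from so many ranked genes seldom share any by chance, and different cells fed each ranking, so nothing is read from this. The lowest were Scin, Ahnak, Best2, Sval1 and Atp8a1 (-0.36 to -0.41). Of the goblet gate's own markers, Muc2 (0.52), Spdef (0.40), Agr2 (0.30) and Atoh1 (0.18) had a positive r in 8 of 8 samples. Fcgbp (-0.46), Tff3 (-0.38), Clca1 (-0.24) and Zg16 (-0.22) had one in 0 of 8, and Spink4 lay at -0.06. Plet1 thus did not go with all goblet markers.

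Cmah and A4gnt are described further because both were also common in cecal goblet-gated cells, and were picked for this after their values were seen. In goblet-gated cells with a Cmah count, Plet1 had 212 CPM in colon Abx_14D and 16.7 CPM in cecal Abx_14D, and 384 CPM in colon GF and 0.413 CPM in cecal GF. Cmah was found in 29.9% of goblet-gated cells of colon Abx_14D and 26.6% in the cecum, and in 32.7% in colon GF and 19.9% in the cecum. A4gnt was found in 24.3% (colon) and 66.9% (cecum) of goblet-gated cells in Abx_14D, and in 36.9% and 66.7% in GF. A4gnt-positive cells had 183 CPM of Plet1 in colon and 2.58 CPM in cecum in Abx_14D, and 360 CPM and 0 CPM in GF. Cells with a companion count were deeper than those without (a median of 24197 and 17034 transcripts with and without Cmah in colon Abx_14D), and the part of depth in these values was not tested. Car8 and Plcb4 were more common still, in 87.8% and 74.8% of the 139 cecal Abx_14D goblet-gated cells. Some others were rare there, with Plet1os and Vipr2 in 4 cells each and Rgs17 and Cacna1h in 3 cells each. The Vipr2-positive cells held 17 Plet1 counts (173 CPM, against 249 CPM in colon). The Rgs17-positive cells also held 17 (153 CPM, against 174 CPM in colon), of 23 counts in the class. Those with Plet1os held 1 count and those with Cacna1h held 0. In cecal GF, the 6 Vipr2-positive and the 24 Rgs17-positive cells held 0 counts. The values of Cmah and A4gnt thus do not speak for the set.

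The 15 had to be seen in colon goblet-gated cells to be ranked, which leans their tissue difference to the colon, so values are given with no count and no p. Vipr2 had 29.6 ± 7.52 CPM in colon and 3.71 ± 6.38 CPM in cecum in Abx_14D (log2 difference 3.20 ± 0.70), and 40.6 ± 15.0 and 2.20 ± 2.33 CPM in GF (4.41 ± 0.65). The log2 difference of Car8 was -0.53 ± 0.30 in Abx_14D and -0.37 ± 0.29 in GF, and that of A4gnt -1.87 ± 0.42 and -0.90 ± 0.39. Of all 10319 genes in this fit, 5.38% and 6.31% passed the test as higher and 6.29% and 7.37% as lower in colon in Abx_14D and GF.

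**Figure D5:**
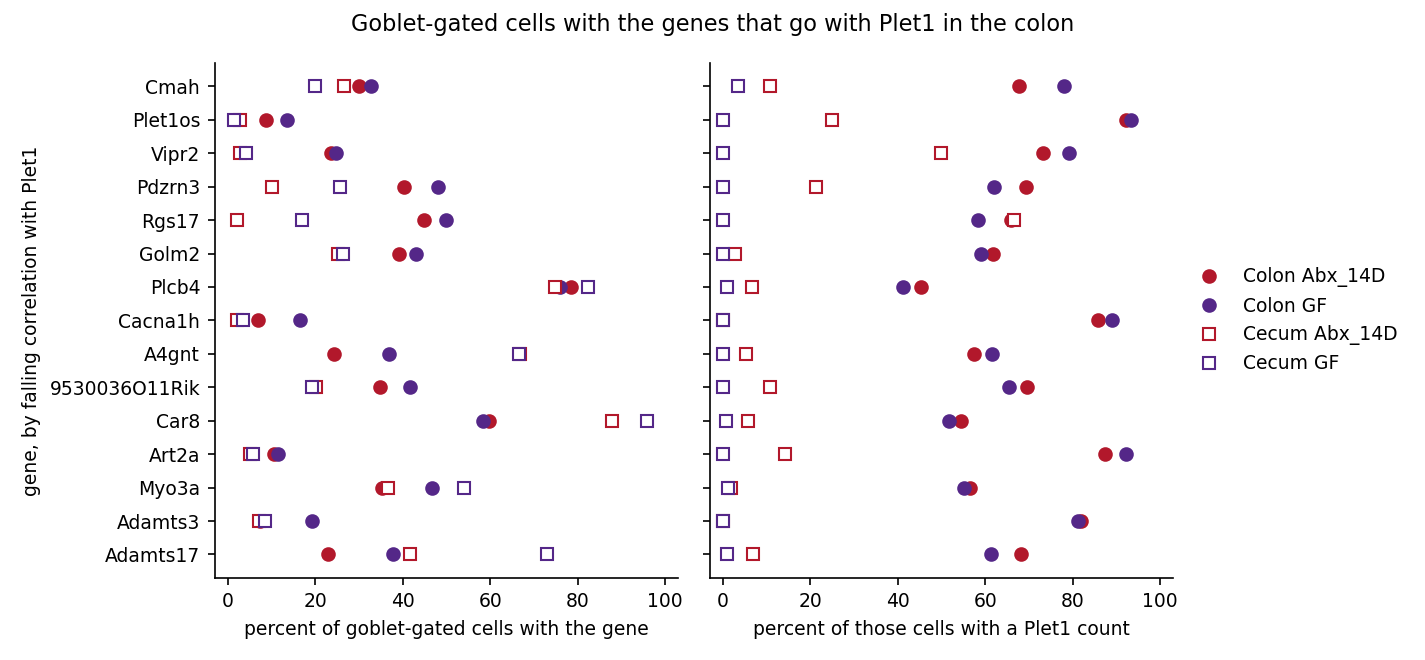
The 15 genes most correlated with Plet1 in colon goblet-gated cells, with gate markers left out. At left is the percent of goblet-gated cells with the gene, at right the percent of those cells that also hold a Plet1 count, pooled over samples. Filled circles are colon and open squares cecum. For A4gnt the squares lie right of the circles at left, yet at 5.38% (Abx_14D) and 0% (GF) at right, against 57.5% and 61.6% in colon; cecal shares for Plet1os, Vipr2, Rgs17 and Cacna1h in Abx_14D rest on 4 or fewer cells.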

How the data were processed

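The deposited table holds raw transcript counts per gene and cell, with the total count per cell beside it, per the file headers. The submitters' processing notes name mm39 and Seurat, without a version or role, and the gene table gives GRCm39. No source used here names an aligner, a counting program, an annotation or the use of strand. The kit was Parse Biosciences Evercode WT, per the labels' protocols.

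The gene, its companions, the gene lists and the tests were chosen with earlier results of these data known. Each of the 8 sublibraries deposited as samples mixes cells of every condition, so tissue, group and number of each cell were read from the deposited cell table, which held 24609 barcodes. Cells with at least 500 transcripts were kept and gated by the mean of log1p counts per 10000 over marker genes; thresholds were set after the scores were seen. Raw counts were summed per loaded sample and class, where at least 20 cells were present, and fitted in edgeR 4.0.16 (R 4.3.3; quasi-likelihood test, library-size scaling, filterByExpr, Benjamini-Hochberg over all genes tested, threshold 0.05). Alternatives were TMM scaling, DESeq2 1.42.0, no filter, at least 1000 transcripts, stricter gates, all cells, a replicate block and leaving out each sample. CPM is Plet1 counts per 1000000 transcripts of the summed cells. A count of 0 was read as allowing up to 3 counts, and 95% intervals are exact; both cover counting error only. Shares were also taken after thinning to 2000 transcripts. The procedure was tested on simulated data.

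Named genes were the 15 with the highest and the 5 with the lowest mean r with Plet1 among genes seen in at least 5% of the cells, gate markers left out, the 10 nearest genes on each side, and up to 4 members of each list with the largest change among those called. A few further list members were named after their values were seen, where few genes passed. Colon Ctrl, with 50 cells, and colon Abx_4D were not compared. Colon Abx_4D kept 1026 cells, but its samples 3 and 4 held only 20 and 41.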

Additional observations from a re-analysis of the deposited data

Results flagged for a closer look

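In 27 groups of 4 samples, each checked for CPM and for the share of cells with a count, 7 values stood apart from the other samples of their group by the gap of the extreme sample to its neighbour over the range. Chance gives about 1 in 20, and most of these values rest on a few counts. Cecal Abx_14D 2 had 0% of absorptive-gated cells with Plet1 and 4.63% of stem-gated cells. Cecal GF 3 had 1.77 CPM over all cells, and in goblet-gated cells 0.796 CPM and 2.44% of cells, from 1 count. Colon Abx_14D 4 had 1.80 CPM in absorptive-gated cells and 4.35% of cells, also from 1 count.

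Colon Abx_4D, which entered no comparison, held Plet1 at 71.8 CPM in sample 1 and 93.0 CPM in sample 2 over all cells. Samples 3 and 4 had 0 and 4.04 CPM. Colon Ctrl held no Plet1 count in 50 cells, which allows up to 62.3 CPM. In colon Abx_4D sample 1, goblet-gated cells had 176 CPM, dividing cells 99.3 CPM and stem-gated cells 58.4 CPM. Over all colon Abx_4D cells, stem-gated cells held 41.0% of the Plet1 counts and goblet-gated cells 22.0%, unlike in colon Abx_14D and GF.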

How the results depend on the processing

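No log2 change of Plet1 changed sign under an alternative. The balance of genes higher and lower did turn: it was 399 and 341 in Abx_14D and 745 and 552 in GF, against 301 and 480, and 490 and 780, under TMM scaling and 305 and 528, and 476 and 800, with DESeq2. With all cells in place of absorptive-gated ones, the genes lower than in Ctrl numbered 58 in Abx_4D and 205 in Abx_14D, the companions found within absorptive-gated cells that were lower numbered 1 and 2, those found over all control cells 0 in Abx_4D, 0 in Abx_14D and 2 in GF, and the Plet1 log2 change was -5.77 in Abx_14D and -6.93 in GF, since other classes then enter the sums. DESeq2 called 292 genes lower in Abx_4D and 528 in Abx_14D, and the test with no low-count filter 273 in Abx_4D; the cause was not tested. Leaving out each sample gave 106 to 167 genes lower in Abx_4D, 199 to 319 in Abx_14D and 390 to 507 in GF. Of the first companions it left 3 to 5 lower in Abx_14D and 9 to 11 in GF, and of the second 1 to 2 and 4 to 6. The Plet1 log2 change ran from -6.71 to -5.99 in Abx_4D, from -8.73 to -7.95 in Abx_14D and from -11.02 to -9.98 in GF. In goblet-gated cells the difference between colon and cecum ran from 3.41 to 4.73 in Abx_14D and from 9.02 to 11.23 in GF; the highest, without cecal GF 3, has no cecal count left, so the fit's prior sets it and it is no bound. Thinning gave Plet1-positive shares of 0.145% in Abx_14D and 29.1% in Ctrl absorptive-gated cells, and 15.7% in Abx_14D and 15.3% in GF colon goblet-gated cells, as fewer transcripts per cell must; at least 2 counts gave 0.197%, 46.8%, 27.3% and 26.9%. Of the 15 companions, thinning kept 8 over all control cells, 6 within absorptive-gated cells and 8 in colon goblet-gated cells, Spearman's rho kept 8 in each of the last 2 sets, and leaving out a sample kept 12 to 14, 10 to 11 and 12 to 14. Over 5 settings the adjusted p of colon GF against Abx_14D over all cells ran from 0.642 to 0.866. Deviations of 24 same-numbered pairs correlated at -0.126 to 0.557 (median 0.284), and of 72 other pairs at a median of -0.0452; 11 of 16 samples correlated best with a sample of their own number. As not every pair exceeded 0.1 and no label ties the numbers, the samples were not taken as paired. With the replicate block, 167, 369 and 562 genes were lower in Abx_4D, Abx_14D and GF, and the Plet1 log2 change was -5.77, -7.84 and -10.13; of the calls described, Irf7 (adjusted p = 0.0586), Ereg (0.0606) and Il17rc (0.0676) in Abx_4D, and Il17rc (0.0576) in GF, did not pass. The planned comparison of absorptive-gated colon and cecum has no value for Plet1, which did not pass the low-count filter there. Limits are the few Plet1 counts of the low groups, 2 to 22 in absorptive-gated cells, and 3 usable control samples.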
